A study of Mus musculus with 8 samples.

Results

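The BAF complex slides and evicts nucleosomes with the energy of ATP, and it is assembled around a core of shared subunits. BAF155 and BAF170, encoded by *Smarcc1* and *Smarcc2*, form the scaffold on which the other core subunits are stabilized. The motor is either BRG1 (*Smarca4*) or BRM (*Smarca2*), 1 of which is taken into each complex, and the BAF60 position is filled by the product of *Smarcd1*, *Smarcd2* or *Smarcd3*. BAF47 (*Smarcb1*) and BAF57 (*Smarce1*) complete the core, which in the developing cortex serves both dividing progenitors and postmitotic neurons. The RNA of these 9 genes, chosen by name as the core and ATPase subunits, was followed in the P1 mouse cortex. All 9 were found among the 48709 genes listed for every library, and all 9 were among the 16287 genes that passed a filter on low counts.

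Whole cortex was taken at P1 from 4 control and 4 dcKO_Nex-Cre samples, all on a C57BL6/J background, with 1 library per sample. In the dcKO_Nex-Cre cortex, floxed BAF155 and BAF170 were both deleted by Nex-Cre, which the study describes as specific to postmitotic projection neurons. Progenitors, glia, interneurons and vessels would then keep both genes, which was not checked in these samples. The controls were Cre negative and carried 1 floxed and 1 wild-type allele of each gene (BAF155fl/+, BAF170fl/+), and the Cre allele and the deletion therefore cannot be told apart. The labels give only control or mutant and the age, and the Cre line and the genotypes were taken from the study's methods. Whether the samples of a group came from separate animals is not stated in the labels, so that p-values measure the spread between these samples.

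Reads were counted per gene, and values are given as CPM, edgeR's counts brought to 1 common library size after TMM normalization for composition. Total counts per library ranged from 17958641 to 35191912. The mitochondrial share of the counts was 2.33% to 6.87%, and it was highest in control replicate 2 (6.87%) and dcKO_Nex-Cre replicate 4 (6.15%). Lane tag 2 was on every control library and on mutant (dcKO_Nex-Cre) replicates 1 and 2, and lane tag 8 was on mutant replicates 3 and 4 alone. The projection neuron markers *Neurod2*, *Slc17a7*, *Tbr1*, *Fezf2*, *Cux2* and *Bhlhe22* were present in every library. Their summed level was 881 to 1010 CPM in the control and 769 to 936 CPM in the dcKO_Nex-Cre cortex. None of the 6 passed the test, and the log2 fold changes were below 0 for all of them. The largest were -0.55 for *Fezf2* (adjusted p = 0.149) and -0.54 for *Slc17a7* (adjusted p = 0.28, edgeR). The others lay between -0.13 and -0.02.

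The members form families of paralogs, and the stretches of coding sequence that paralogs share bear on whether their reads could be mixed up. The longest identical runs within each family are shown for this reason, in the sense direction and in lower case because every base is shared (GRCm38, GENCODE M21 coding sequence).
*Smarcc1* and *Smarcc2*: caaatgaagaaactagagatcaaact
*Smarca2* and *Smarca4*: atgttggccaggggccagcc
*Smarcd1* and *Smarcd3*: gaagatggctgacaaaatcct
The run of the *Smarcc* pair was 26 bases long and lay in exon 25 of both genes, at chr9:110213569-110213594 (+) and chr10:128485620-128485645 (+). The *Smarca* run had 20 bases in exon 4 of both genes, at chr19:26630885-26630904 (+) and chr9:21635745-21635764 (+). The *Smarcd1* and *Smarcd3* run had 21 bases in exon 3 of both genes, at chr15:99703603-99703623 (+) and chr5:24596817-24596837 (-). The other pairs of the *Smarcd* family shared no run over 18 bases. Cut into windows of 50 bases, the coding sequence of each member had 0 windows in common with the coding sequence of a paralog. An exact match of that length within the coding sequence thus points to 1 member of a family. The read length is not given in the sources used here, and inexact matches and reads from untranslated exons were not checked.

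The scaffold pair carries the deletion and is described first. *Smarcc2* (ENSMUSG00000025369, chr10:128459248-128490482, +) was at 456, 486, 478 and 429 CPM in control replicates 1 to 4, and at 241, 292, 241 and 278 CPM in dcKO_Nex-Cre replicates 1 to 4. The groups did not overlap, and the highest dcKO_Nex-Cre library lay far below the lowest control. Means of 462 ± 25.8 CPM in the control and 263 ± 26.0 CPM in the mutant cortex (SD, n = 4 each) put the mutant at 56.9% of control. On the log2 scale this was a change of -0.81 (standard error 0.089, 95% interval -1.01 to -0.62, adjusted p = 0.00267, edgeR quasi-likelihood test with Benjamini-Hochberg adjustment over all genes tested). The interval corresponds to 49.7% to 65.2% of control.

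*Smarcc1* (ENSMUSG00000032481, chr9:110117708-110240178, +) was at 141, 146, 164 and 139 CPM in the control libraries and at 93.0, 122, 100 and 93.4 CPM in the dcKO_Nex-Cre libraries. Again no library of one group reached the range of the other, although dcKO_Nex-Cre replicate 2 came closest to the controls. The control mean was 148 ± 11.6 CPM and the mutant mean 102 ± 13.7 CPM (SD, n = 4 each), which is 69.2% of control with an interval of 59.6% to 80.4%. This log2 fold change of -0.53 passed the test (standard error 0.10, adjusted p = 0.0348, edgeR). The call of *Smarcc1* was close to the threshold. It was lost in 6 of the 8 fits that left out a library, namely each of the controls, dcKO_Nex-Cre replicate 1 or dcKO_Nex-Cre replicate 3, with an adjusted p of up to 0.132 and a log2 fold change between -0.63 and -0.47 over all 8 fits. Within lane tag 2 its log2 fold change was -0.46 (adjusted p = 0.0752, edgeR). *Smarcc2* kept its call in every one of these fits, at a log2 fold change of -0.87 to -0.77 where a library was left out.

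In this comparison 83 of all 16287 genes tested were called lower, which is 0.51%, and 61 were called higher, which is 0.375%. Both members called were lower and were the deleted genes, so that their calls check the labels of the 4 dcKO_Nex-Cre libraries. Of all genes tested, 4.01% were lower and 3.99% were higher with no overlap between the groups. By this criterion 2 of the 9 members were lower (*Smarcc1* and *Smarcc2*), 2 were higher (*Smarcd1* and *Smarce1*) and 5 overlapped. The counts sum over all exons of a gene and do not resolve the floxed exons, so that RNA from a recombined allele may still be counted. In whole tissue, fewer cells that express a gene and less RNA per cell cannot be told apart. For the deleted genes the RNA of cells outside the Nex-Cre lineage may add to the level that remained.

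**Figure D1:**
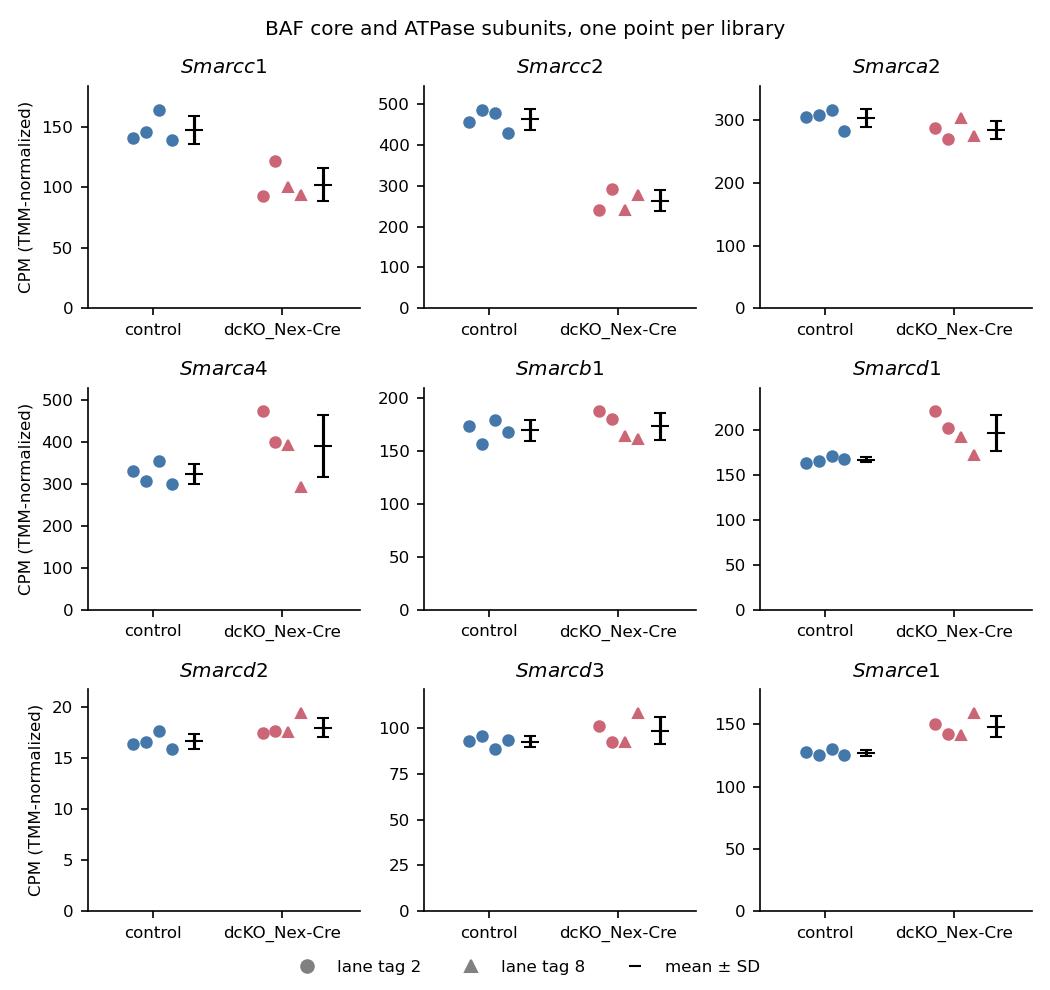
Expression of the 9 subunits in each library, as TMM-normalized CPM (vertical axes start at 0; blue, control; red, dcKO_Nex-Cre; circles, lane tag 2; triangles, lane tag 8; points within a group run from replicate 1 to 4; black, mean ± SD, n = 4). *Smarcc1* and *Smarcc2* are lower in all 4 dcKO_Nex-Cre libraries, *Smarcd1* and *Smarce1* are higher in all 4, and *Smarca4* is split, with replicate 4 at 293 CPM below every control.

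Of the motor subunits, *Smarca4* (BRG1, ENSMUSG00000032187, chr9:21616169-21704230, +) was at 331, 308, 354 and 301 CPM in the controls. It was at 473, 400, 394 and 293 CPM in the dcKO_Nex-Cre cortex, where replicates 1 to 3 lay above every control and replicate 4 lay below every control. The group means were 324 ± 23.7 and 390 ± 73.7 CPM (SD, n = 4 each), and the coefficient of variation was 7.32% of the mean among controls and 18.9% among mutants. The log2 fold change of 0.27 did not pass the test (95% interval -0.012 to 0.55, adjusted p = 0.384, edgeR). The interval reaches from 99.2% to 146% of control.

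*Smarca2* (BRM, ENSMUSG00000024921, chr19:26605050-26778322, +) was at 306, 309, 317 and 283 CPM in the controls and at 288, 271, 304 and 275 CPM in the dcKO_Nex-Cre libraries. These ranges overlapped. The mean was 93.6% of control, with an interval of 83.6% to 105%, and the log2 fold change was -0.095 (adjusted p = 0.586, edgeR). A fall of *Smarca2* as large as that of *Smarcc2* or *Smarcc1* lies outside this interval.

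In the BAF60 family, *Smarcd1* (BAF60a, ENSMUSG00000023018, chr15:99702129-99713991, +) was the only one of 3 genes whose groups did not overlap, and its controls lay in a narrow range. Its control libraries had 164, 166, 171 and 168 CPM, and its mutant libraries had 221, 202, 193 and 172 CPM. The highest control was 171 CPM and the lowest dcKO_Nex-Cre library, replicate 4, was 172 CPM, so that the groups were separate by a margin smaller than the SD of either group. The mean was 118% of control (interval 104% to 134%), with a log2 fold change of 0.24 (unadjusted p = 0.0155, adjusted p = 0.249, edgeR).

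*Smarcd2* (BAF60b, ENSMUSG00000078619, chr11:106263179-106272972, -) was the weakest member in counts, at 16.6 ± 0.732 CPM in the control and 18.0 ± 0.916 CPM in the dcKO_Nex-Cre cortex (SD, n = 4 each). Its log2 fold change was 0.11 (adjusted p = 0.575, edgeR), and the groups overlapped. *Smarcd3* (BAF60c, ENSMUSG00000028949, chr5:24590818-24624411, -), a form found in neurons and muscle, was at 92.4 ± 3.04 CPM in the control and 98.4 ± 7.42 CPM in the dcKO_Nex-Cre cortex (SD, n = 4 each). Its log2 fold change was 0.09 (adjusted p = 0.597, edgeR). The value of *Smarcd3* is less certain than the others, since 48.16% of its annotated exon bases lie opposite exons of *Chpf2*, a chondroitin synthase gene, and the library kit does not mark strand. *Chpf2* was at 20.9 CPM in the control and 18.9 CPM in the dcKO_Nex-Cre cortex (log2 fold change -0.15, adjusted p = 0.582, edgeR; -0.24 to -0.08 with single libraries left out).

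*Smarce1* (BAF57, ENSMUSG00000037935, chr11:99209047-99231017, -), an HMG-box subunit, was at 128, 125, 130 and 125 CPM in the controls and at 150, 142, 141 and 159 CPM in the dcKO_Nex-Cre libraries. All 4 dcKO_Nex-Cre libraries lay above all controls, replicate 4 included. The mean was 116% of control (interval 105% to 129%), and the log2 fold change of 0.22 missed the threshold (unadjusted p = 0.0066, adjusted p = 0.177, edgeR). A Wald test in DESeq2 called it (log2 fold change 0.22, adjusted p = 0.0414), in a fit that called 1.37% of the genes with an adjusted p higher.

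*Smarcb1* (BAF47, ENSMUSG00000000902, chr10:75896769-75921617, -) was at 173, 156, 179 and 168 CPM in the controls and at 187, 180, 164 and 161 CPM in the dcKO_Nex-Cre libraries. The groups overlapped, and the mean was 102% of control. With an interval of 90.9% to 115% and a log2 fold change of 0.034 (adjusted p = 0.869, edgeR), no difference in *Smarcb1* was detectable between these samples.

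**Figure D2:**
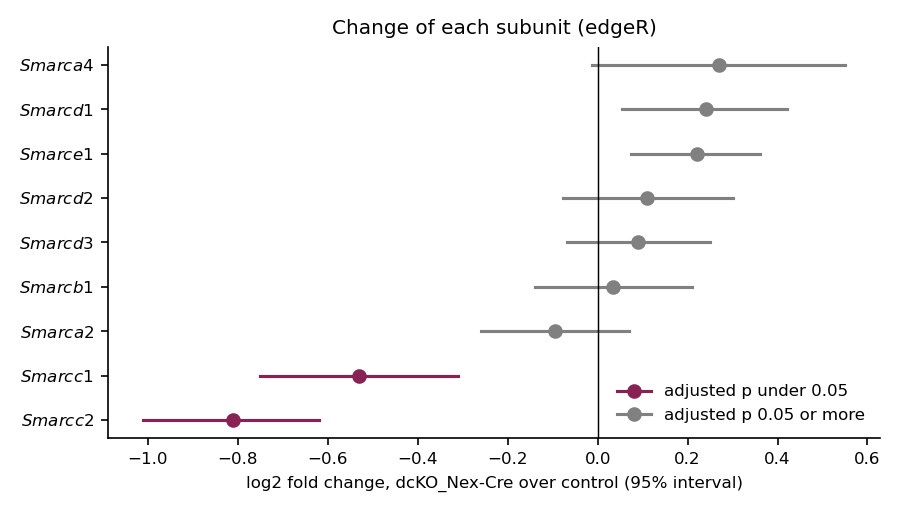
Log2 fold change of each subunit, dcKO_Nex-Cre over control, with its 95% interval from edgeR (horizontal axis; purple, adjusted p under 0.05; grey, 0.05 or more). *Smarcc2* at -0.81 and *Smarcc1* at -0.53 are the only members past the threshold, and the intervals of *Smarcd1* and *Smarce1* lie above 0.

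Of the 7 subunits that were not deleted, 0 passed an adjusted p of 0.05 in edgeR, 2 were higher at an unadjusted p under 0.05 (*Smarcd1* and *Smarce1*), and DESeq2 called 1 (*Smarce1*), while limma-voom called 0. Of all genes, 6.59% were higher and 7.05% were lower at that unadjusted p. The log2 fold change was above 0 for 6 of the 7, with a median of 0.11, beside 8283 of 16287 genes and a median of 0.0043 over all genes tested. None of the 7 was called lower under any way of fitting that was tried. These values are of RNA, and protein was not measured in these libraries. By immunostaining, the study reported that core subunit proteins were depleted in the P1 dcKO_Nex-Cre cortex, with some residual staining.

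A single library decided the calls of *Smarca4* and *Smarcd1*. Without dcKO_Nex-Cre replicate 4, *Smarca4* had a log2 fold change of 0.39 (adjusted p = 0.0293, edgeR) and *Smarcd1* of 0.30 (adjusted p = 0.0282, edgeR), in a fit that called 3.98% of all genes higher. Without both libraries of highest mitochondrial share, an alternative chosen after the data were seen, the values were 0.37 (adjusted p = 0.021) for *Smarca4* and 0.30 (adjusted p = 0.0164) for *Smarcd1* by edgeR, and 5.49% of all genes were called higher. Within lane tag 2, which also leaves out replicate 4, the log2 fold changes were 0.43 (adjusted p = 0.0663) and 0.34 (adjusted p = 0.0603, edgeR). Leaving out dcKO_Nex-Cre replicate 1 instead moved them the other way, to 0.16 for *Smarca4* (adjusted p = 0.669) and 0.18 for *Smarcd1* (adjusted p = 0.429, edgeR). *Smarce1* did not share this pattern, since it was highest in replicate 4 and its log2 fold change stayed between 0.19 and 0.24 with any library left out. The dcKO_Nex-Cre library with the lowest mitochondrial share, replicate 1 (2.33%), had the highest *Smarca4* and *Smarcd1*, and the one with the highest share, replicate 4 (6.15%), had the lowest. Total counts also fell from dcKO_Nex-Cre replicate 1 to 4 (35191912, 25378989, 24132908 and 17958641), as did both genes. Lane tag 8 was on replicates 3 and 4. Among the controls, in order of rising share (replicates 3, 1, 4 and 2, from 3.38% to 6.87%), *Smarca4* was at 354, 331, 301 and 308 CPM. *Smarcd1* was at 171, 164, 168 and 166 CPM in the same order. The parts of the mitochondrial share, of total counts and of lane tag in the order of these libraries were not tested.

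**Figure D3:**
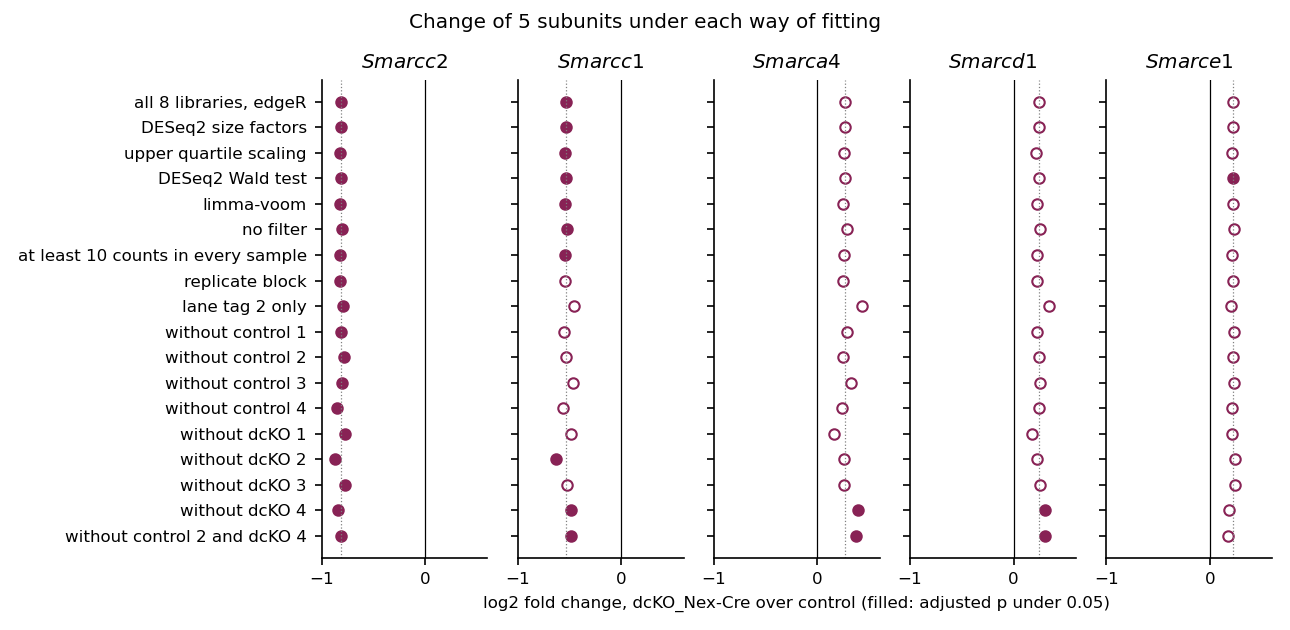
Log2 fold change of 5 subunits (horizontal axes) under each way of fitting (rows: other scalings, tests and filters, the replicate number as a block, lane tag 2 alone, and each library left out). Filled points have an adjusted p under 0.05, the dotted line marks the value from all 8 libraries, and *Smarca4* and *Smarcd1* are filled only in the 2 lowest rows, both of which leave out dcKO_Nex-Cre replicate 4.

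Ratios of paralogs within a library need no scaling between libraries, and they show which form predominated in counts. *Smarcc2* had 3.23, 3.33, 2.91 and 3.09 counts for each count of *Smarcc1* in the control libraries, and 2.59, 2.39, 2.41 and 2.98 in the dcKO_Nex-Cre libraries. The geometric mean went from 3.13 to 2.58, with replicate 4 inside the control range, so that a larger relative fall of *Smarcc2* was not separated from the spread between libraries (log2 difference -0.28, two-sided exact permutation test, p = 0.0571, adjusted p = 0.214 over 5 ratios). The smallest p that 70 regroupings can give is 0.0286.

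The ratio of *Smarca2* to *Smarca4* was 0.926, 1.0, 0.895 and 0.939 in the controls and 0.609, 0.677, 0.772 and 0.938 in the dcKO_Nex-Cre libraries. Replicates 1 to 3 were below every control, and replicate 4 was in the control range (log2 difference -0.35, exact permutation test, p = 0.0857, adjusted p = 0.214). In the BAF60 family, the ratio of *Smarcd1* to *Smarcd3* went from a geometric mean of 1.81 to 2.0, and that of *Smarcd1* to *Smarcd2* from 10.1 to 10.9. Neither passed the test (exact permutation test, adjusted p = 0.382 and 0.429). The ratio of *Smarcd2* to *Smarcd3* was 0.18 in controls and 0.183 in mutants (exact permutation test, p = 0.714). Without dcKO_Nex-Cre replicate 4, the log2 differences were -0.35 for *Smarcc2* to *Smarcc1*, -0.46 for *Smarca2* to *Smarca4*, 0.25 for *Smarcd1* to *Smarcd3* and 0.22 for *Smarcd1* to *Smarcd2*, each with an unadjusted exact permutation p of 0.0286, the smallest that 4 libraries against 3 can give. Without dcKO_Nex-Cre replicate 1, they were -0.28, -0.25, 0.10 and 0.047 in the same order, and none passed the exact permutation test.

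**Figure D4:**
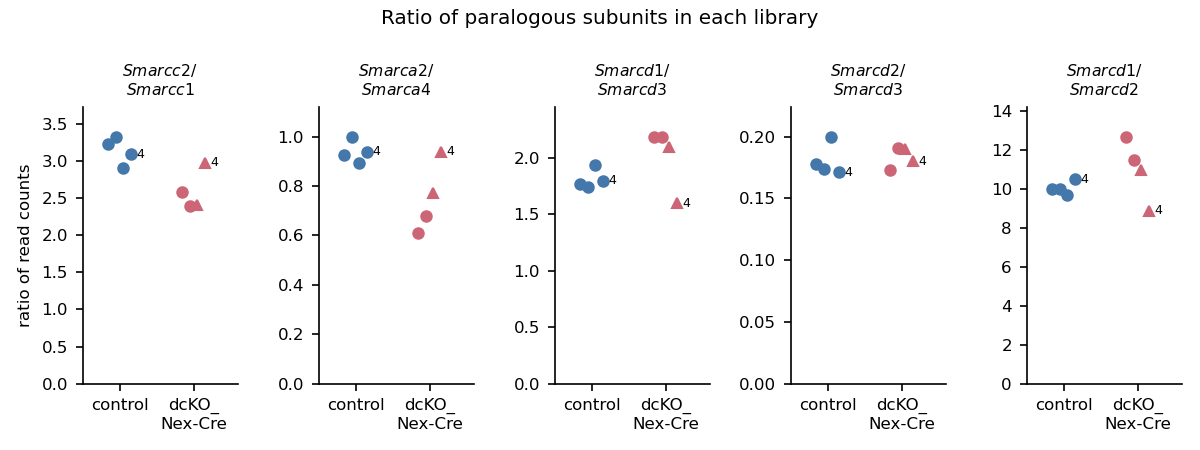
Ratio of read counts of paralogous subunits in each library (vertical axes start at 0; blue, control; red, dcKO_Nex-Cre; circles, lane tag 2; triangles, lane tag 8; the digit 4 marks replicate 4 of each group). In the *Smarca2* to *Smarca4* panel, dcKO_Nex-Cre replicates 1 to 3 lie at 0.609 to 0.772, below the control range of 0.895 to 1.0, and replicate 4 lies within it at 0.938.

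Levels can be compared between genes only per length, and the order depended on which length was used. Per kilobase of all annotated exons, *Smarcc2* had the highest level of the 9 in the control, at 83.3 ± 4.65 CPM per kilobase (SD, n = 4), above *Smarca4*, whose libraries ran from 46.5 to 54.6, and *Smarcd1* at 41.6 ± 0.759 CPM per kilobase. *Smarca2* and *Smarcb1* came next, at 21.3 CPM per kilobase each, and their libraries overlapped. They were followed by *Smarce1* at 19.1, *Smarcc1* at 18.9 and *Smarcd3* at 18.1 CPM per kilobase, where the libraries of *Smarcc1* (17.7 to 21.0) overlapped those of both its neighbours. *Smarcd2* was lowest at 4.64 CPM per kilobase. Per kilobase of the longest transcript, *Smarcc2* was again highest at 101 CPM per kilobase and *Smarcd2* again lowest at 6.06, but *Smarca2* moved up to 51.3 CPM per kilobase, beside *Smarca4* at 50.8 and *Smarcd1* at 50.6, and the libraries of these 3 genes overlapped. The exons annotated for *Smarca2* sum to 2.41 times the length of its longest transcript, and those of *Smarce1* to 2.13 times. The order from the highest level changed most for *Smarcb1*, which was at rank 4 (tied with *Smarca2*) per kilobase of annotated exons and at rank 8 per kilobase of the longest transcript, where its level was 22.7 CPM per kilobase.

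In the dcKO_Nex-Cre cortex *Smarcc2* no longer had the highest level, with 47.4 ± 4.7 CPM per kilobase of annotated exons, beside 60.2 ± 11.4 for *Smarca4* and 49.0 ± 5.07 for *Smarcd1* (SD, n = 4 each). The libraries of these 3 genes overlapped. *Smarcc1* was at 13.0 ± 1.75 CPM per kilobase, the lowest of the members other than *Smarcd2*. The summed level of the scaffold pair was 102 ± 5.71 CPM per kilobase in controls and 60.4 ± 5.97 in mutants (SD, n = 4 each). *Smarcc2* made up 81.5% of that sum in controls and 78.4% in mutants. The summed motor level was 71.2 ± 4.52 CPM per kilobase in controls and 80.2 ± 11.8 in mutants. For the 3 BAF60 genes it was 64.3 ± 0.563 and 73.2 ± 4.5 CPM per kilobase (SD, n = 4 each). These sums are per kilobase of annotated exons. Per kilobase of the longest transcript, the control and mutant means were 127 and 75.3 for the scaffold pair. They were 102 and 109 for the motors, and 81.2 and 92.3 for the BAF60 genes.

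**Figure D5:**
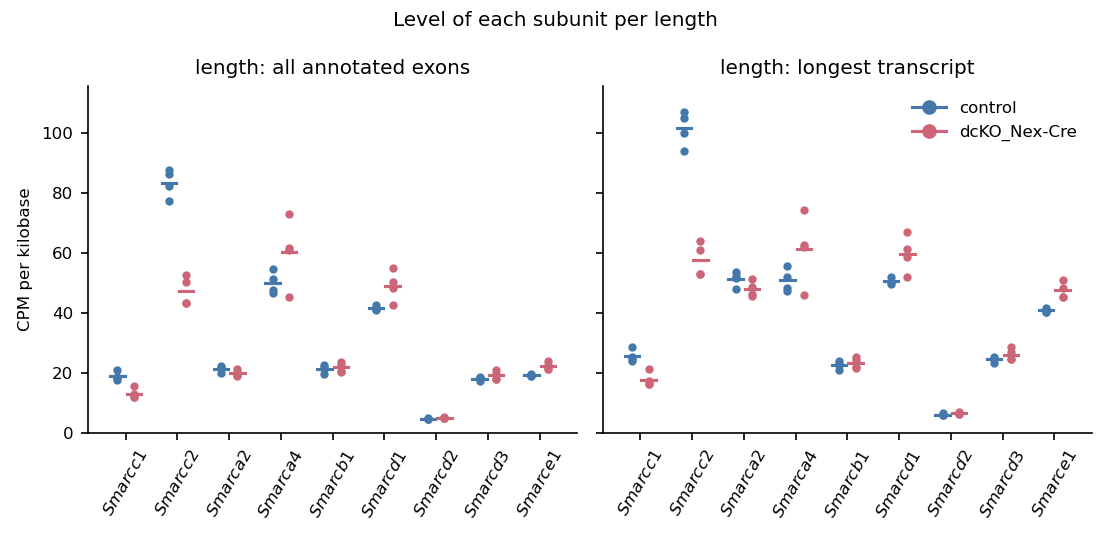
Level of each subunit in CPM per kilobase (vertical axis) with the length taken from all annotated exons (left) or from the longest transcript (right). Points are libraries and lines are group means (blue, control; red, dcKO_Nex-Cre); *Smarcc2* is the highest control on both scales, and *Smarca2* is at 21.3 on the left and 51.3 on the right.

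Genes next to the deleted genes and genes that overlap members were also read. *Dhx30*, an RNA helicase gene that overlaps 1.57% of the *Smarcc1* exon bases on the opposite strand, had a log2 fold change of 0.09 (adjusted p = 0.601, edgeR). *Cspg5*, a neural proteoglycan gene 3605 bases after *Smarcc1*, had a log2 fold change of 0.14 (adjusted p = 0.663, edgeR), which ranged from 0.03 to 0.22 when single libraries were left out. Neither passed the test. On chromosome 10, *Rnf41*, a ubiquitin ligase gene that ends 17807 bases before *Smarcc2* on the same strand, fell from 118 ± 6.13 to 90.7 ± 3.11 CPM (SD, n = 4 each), a log2 fold change of -0.38 (adjusted p = 0.0277, edgeR). This call was kept in 2 of the 8 fits that left out a library, those without control replicate 2 or dcKO_Nex-Cre replicate 4. The adjusted p reached 0.132 without control replicate 1 (edgeR), and the log2 fold changes were -0.41 to -0.36. Within lane tag 2, which also leaves out dcKO_Nex-Cre replicate 4, *Rnf41* was called (log2 fold change -0.39, adjusted p = 0.0464, edgeR). *Myl6* is a myosin light chain gene 378 bases after *Smarcc2* on the other strand. It was at 79.2 ± 3.56 CPM in the control and 65.1 ± 7.62 CPM in the dcKO_Nex-Cre cortex (SD, n = 4 each). Its log2 fold change was -0.28 (adjusted p = 0.189, edgeR). It passed the test without dcKO_Nex-Cre replicate 4 alone of the 8 libraries (log2 fold change -0.36, adjusted p = 0.0139, edgeR). Within lane tag 2 it was not called (log2 fold change -0.35, adjusted p = 0.0588, edgeR). *Gm27373*, *Gm17349* and *Mir671*, which overlap exons of *Smarca4*, *Smarcd1* and *Smarcd3*, had too few counts to be tested, and *4931403E22Rik*, which overlaps *Smarca2*, was at 0.573 CPM in the control and 0.474 CPM in the dcKO_Nex-Cre cortex.

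Profiles across the 8 libraries were compared between each deleted gene and 10280 genes with a mean of at least 10 CPM, by the root mean square difference of centred log2 CPM. Nearest to *Smarcc2* were *Scoc* (0.166), *Frmpd4* (0.174), a scaffold gene of the postsynapse, and *Smarcc1* itself (0.174). Nearest to *Smarcc1* were *Bcl6b* (0.12), which encodes a transcriptional repressor, *Crym* (0.123), which encodes a thyroid hormone binding protein, and *Sc5d* (0.13), a sterol synthesis gene. *Scoc* was at 54.2 ± 3.17 CPM in controls and 36.4 ± 3.19 CPM in mutants, and *Crym* at 122 ± 15.6 and 83.8 ± 10.2 CPM (SD, n = 4 each). This likeness is a description over libraries that also differ by group.

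Beyond the core, 22 further genes of the complex were read, namely the actin and actin-like, ARID, PHD-finger, bromodomain, BCL7, BCL11, SS18 and BICRA subunits with their paralogs. Of these, 0 were called by edgeR, 5 had an unadjusted p under 0.05, and DESeq2 and limma-voom also called 0. Over all genes, 2222 of 16287 had an unadjusted p under 0.05. The log2 fold change was above 0 for 14 of the 22, with a median of 0.066, beside 8283 of 16287 genes and a median of 0.0043. The smallest p-value was that of *Arid2*, the ARID subunit of the PBAF form, at 119 ± 9.85 CPM in the control and 143 ± 11.3 CPM in the dcKO_Nex-Cre cortex (SD, n = 4 each; log2 fold change 0.27, unadjusted p = 0.00858, adjusted p = 0.197, edgeR). *Arid1a* and *Arid1b*, which encode the alternative ARID subunits of canonical BAF, had log2 fold changes of 0.29 (adjusted p = 0.269) and 0.26 (adjusted p = 0.325, edgeR). *Ss18*, which encodes a subunit exchanged during neuronal differentiation, was at 33.4 CPM in the control and 38.1 CPM in the dcKO_Nex-Cre cortex (log2 fold change 0.19, adjusted p = 0.298, edgeR). *Dpf3*, which encodes a PHD-finger subunit of neurons, was at 8.52 CPM in the control and 6.65 CPM in the dcKO_Nex-Cre cortex (log2 fold change -0.36, adjusted p = 0.284, edgeR), and *Bicral*, a gene of the non-canonical form, had a log2 fold change of 0.20 (adjusted p = 0.374, edgeR). Leaving out dcKO_Nex-Cre replicate 4 made 3 of the 22 pass, all higher, in the fit that called 3.98% of all genes higher, with log2 fold changes of 0.36 for *Arid1a* (adjusted p = 0.0493), 0.31 for *Arid2* (adjusted p = 0.0442) and 0.36 for *Arid1b* (adjusted p = 0.0171, edgeR).

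Markers of the cell types that the tissue could hold were read beside these values. The interneuron sum was 693 to 839 CPM in the control and 595 to 756 CPM in the dcKO_Nex-Cre cortex. Of its log2 fold changes 2 of 7 were above 0, and that of *Sst* was -0.84 (adjusted p = 0.0645, edgeR). The sum of radial glia and astrocytes was 2240 to 2660 CPM in the control and 1780 to 2280 CPM in the dcKO_Nex-Cre cortex. Its largest part was *Fabp7*, with means of 1580 and 1120 CPM (log2 fold change -0.5, adjusted p = 0.114, edgeR), and 2 of 6 log2 fold changes were above 0. No gene was called in either list. Progenitor and dividing cell markers summed to 107 to 154 CPM in the control and 129 to 232 CPM in the dcKO_Nex-Cre cortex, with 4 of 4 log2 fold changes above 0 and none called. Markers of the oligodendrocyte precursor summed to 173 to 252 CPM in the control and were higher, before rounding, in every dcKO_Nex-Cre library (252 to 308 CPM), with 1 of 5 called (*Cspg4*, log2 fold change 0.56, adjusted p = 0.0355, edgeR). The microglia sum was 101 to 116 CPM and 104 to 140 CPM, with 1 of 6 called (*C1qb*, log2 fold change 0.46, adjusted p = 0.0422, edgeR), while *P2ry12* of the same list had a log2 fold change of -0.57 that missed the threshold (adjusted p = 0.0596, edgeR). No gene was called among the markers of endothelium (88.6 to 131 and 111 to 142 CPM), red blood cells (70.7 to 116 and 69.9 to 162 CPM), choroid plexus (15.7 to 1330 and 3.31 to 552 CPM, with 3 of 4 genes tested), striatum (38.8 to 47.9 and 32.8 to 78.0 CPM) or meninges (6.97 to 13.7 and 2.61 to 18.9 CPM), the first range of each being the control. No marker was at 0 in all libraries. Replicates 1 and 4 of dcKO_Nex-Cre were farthest apart in *Smarca4*, and their sums are given in that order. Higher in replicate 1 were projection neuron (936 and 841 CPM), oligodendrocyte precursor (308 and 252 CPM) and progenitor and dividing cell (147 and 129 CPM). So were microglia (128 and 104 CPM), endothelium (134 and 111 CPM), choroid plexus (14.4 and 3.31 CPM) and striatum (41.3 and 32.8 CPM). Higher in replicate 4 were interneuron (595 and 756 CPM), radial glia and astrocyte (1960 and 2000 CPM), red blood cell (69.9 and 162 CPM) and meninges (2.61 and 7.52 CPM). The part of cell composition in the levels of the BAF subunits was not tested.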

How the data were processed

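The authors deposited 1 table of raw counts per Ensembl gene for each of 8 libraries, without normalization. Total RNA of whole cortex was made into libraries by an Illumina TruSeq kit that does not mark strand. The submitters' processing notes name mm10, and the aligner and the counting program are not given in the sources used here. Of 48709 gene identifiers, 48349 were matched to GENCODE M21 on GRCm38. The members and all gene lists were chosen with earlier results of these data known. Named genes were the 9 members, the 6 other subunits with the smallest p, genes overlapping a member, the neighbours of *Smarcc1* and *Smarcc2*, and the 3 nearest profiles of each. *Chpf2*, the markers called and some markers not called were named with these. A withheld item of the marker lists is not reported here.

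The test was that of edgeR 4.0.16 under R 4.3.3 (filterByExpr, TMM, robust quasi-likelihood F test, no covariates), with Benjamini-Hochberg adjustment over 16287 genes and a threshold of 0.05. The 95% intervals came from the F statistic. For single values, all 70 regroupings gave an exact permutation test, two-sided. Alternatives were DESeq2 size factors, upper quartile scaling, the Wald test of DESeq2 1.42.0, limma-voom (limma 3.58.1), no filter, a minimum of 10 counts per sample, a replicate block, lane tag 2 alone, each library left out and, for levels per kilobase, the longest transcript in place of all annotated exons. Lane tags come from the deposited files' names and assigned no condition. No library copied another of its group (the smallest chi-square per degree of freedom was 3.77), and libraries of different groups were not compared in this way. The fits were tested on simulated data. Total counts per library were 17958641 to 35191912, and the spread between libraries (biological coefficient of variation 0.143) limits the precision more than counting does for genes at these levels. Python 3.11.15 made the tables and figures, with pandas 2.3.3, scipy 1.17.1 and matplotlib 3.10.9.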

Additional observations from a re-analysis of the deposited data

Results flagged for a closer look

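In 28 groups of 4 libraries, the highest or lowest library was tested for a gap from the others, and 2 groups had a gap over Dixon's 95% critical value. Chance gives such a gap in about 1 of 20 groups. The CPM of *Smarcd2* in dcKO_Nex-Cre replicate 4 was 19.4, while the other dcKO_Nex-Cre libraries lay between 17.4 and 17.6. The ratio of *Smarcd1* to *Smarcd3* in the same library was 1.6, while the others of its group lay between 2.1 and 2.19. This library has the second highest mitochondrial share (6.15%), the lowest total counts (17958641) and lane tag 8.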

How the results depend on the processing

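*Smarcc2* passed the threshold under all 17 alternatives. With the replicate block, *Smarcc1* had a log2 fold change of -0.54 (adjusted p = 0.0578, edgeR), 1 of the 9 members was called and 54 of all genes, against 144 without it. The replicate numbers are not stated to pair the samples. Deviations of log2 CPM from the group mean, over all genes tested, correlated between same-numbered samples at 0.126, 0.0179, 0.135 and -0.138. Within lane tag 2, *Smarcc1* had -0.46, and 1 member (*Smarcc2*), 1 further subunit (*Arid1b*, 0.41, adjusted p = 0.0425, edgeR) and 248 genes were called. Per kilobase of the longest transcript, all control levels but that of *Smarca4* moved by more than 1 SD. DESeq2's Wald test called 494 genes, and no filter gave 259. Without control replicate 2 and dcKO_Nex-Cre replicate 4, chosen after seeing the data, 4 members, 4 further subunits (*Arid1a*, *Arid1b*, *Arid2* and *Bicral*) and 1794 genes were called. Leaving out each library gave log2 fold changes of -0.63 to -0.47 for *Smarcc1*, 1 to 4 members, 0 to 3 further subunits and 18 to 1278 genes called; the highest counts of members, subunits and genes were all without dcKO_Nex-Cre replicate 4. The log2 difference of the *Smarcc2* to *Smarcc1* ratio ranged from -0.35 to -0.24. Reversed signs, both near 0, were seen for *Smarcb1* (-0.0048 without dcKO_Nex-Cre replicate 1, up to 0.07) and for the ratio of *Smarcd2* to *Smarcd3* (-0.0015 without control replicate 4, up to 0.075). The causes of these shifts were not tested. With 4 libraries a group, a *Smarca4* level of up to 146% of control lies within its interval.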
